A study of Mus musculus with 2 samples.

Results

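This account covers 956 regions of open chromatin outside promoters in mouse heart. Signal in each was at least 2-fold lower in heart with a cardiac deletion of Ythdc1 than in control heart. These regions are called lost peaks below, although most kept some signal. They came from a table of 58076 peaks of ATAC-seq, in which the transposase Tn5 cuts and tags accessible DNA. Of these, 18901 lay outside promoters, taken as the first 1 kb around a start site, and held at least 100 counts in both libraries together. Of these 18901 peaks, 956 (5.06%) had a log2 ratio of knockout to control of -1 or lower, and 723 (3.83%) had a ratio of 1 or higher and are called gained peaks. The ratio was taken on counts scaled to the total in peaks of each library (CPM), with 0.5 counts added.

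The study has 1 library of each genotype, from hearts of mice 15 days of age on normal chow. The control carries the floxed gene alone (Ythdc1flox/flox), and the knockout is labelled Ythdc1 CKO, a deletion in the heart. The Cre driver, the number of animals behind each library and any pooling of them were not given in the sources used. With 1 library a genotype no test between animals was possible, no p-value is given, and each ratio has no replicate check. The peaks were chosen by the counts and the ratio of these same libraries, so both are given for them as a description. In whole heart, fewer nuclei of a cell type and less open chromatin in each nucleus cannot be told apart.

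Accessible sites outside promoters are largely enhancers and other regulatory elements, where transcription factors displace nucleosomes, and many act over long distances on genes other than the nearest. In heart muscle such elements drive genes of the contractile apparatus, of calcium cycling and of the action potential. Ythdc1 encodes a nuclear protein that binds N6-methyladenosine in RNA and takes part in splicing, RNA export and chromatin silencing. Open chromatin peaks carry no sign of their target, so a gene named below is the one with the nearest start site in the authors' annotation, and the RefSeq protein-coding gene at the position is added where it differs.

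Bases were at hand only where a lost peak overlapped a RefSeq promoter window of the same build (GRCm38.p6), which was so for 7 lost peaks, all at predicted genes. The longest stretches, and the one 53.0 kb upstream of Adrb1, the peak with the lowest ratio of the 7, are shown so that the element itself can be seen. They are read 5′ to 3′ on the strand of the predicted gene, and capitals mark bases from its RefSeq start site onward.

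Adrb1 distal peak (start of Gm32492, plus strand, chr19:56668980-56669116): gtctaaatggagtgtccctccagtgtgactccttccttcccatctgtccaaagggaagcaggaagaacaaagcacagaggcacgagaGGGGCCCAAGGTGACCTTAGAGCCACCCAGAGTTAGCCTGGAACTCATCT
Ercc6l2 distal peak (start of Gm46423, minus strand, chr13:63906669-63906848): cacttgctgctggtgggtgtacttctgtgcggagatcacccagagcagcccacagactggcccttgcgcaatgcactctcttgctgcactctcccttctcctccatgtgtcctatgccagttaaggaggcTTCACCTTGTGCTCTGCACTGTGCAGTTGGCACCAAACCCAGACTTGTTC
Mboat1 intron peak (start of Gm40863, minus strand, chr13:30235174-30235378): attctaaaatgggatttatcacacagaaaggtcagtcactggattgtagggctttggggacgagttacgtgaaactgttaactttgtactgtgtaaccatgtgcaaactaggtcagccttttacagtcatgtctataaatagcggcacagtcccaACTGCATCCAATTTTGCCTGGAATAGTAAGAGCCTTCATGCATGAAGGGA

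The Adrb1 stretch covers 34.9% of its peak, that near Ercc6l2 62.7% and that in Mboat1 57.4%. The Adrb1 peak held 139 control and 30 knockout counts, the Ercc6l2 peak 81 and 29, and the Mboat1 peak 81 and 35. Their GC content was 54.0%, 56.1% and 42.4%, against a median of 52.7% over 32851 RefSeq promoter windows.

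The typical lost peak was modest in size. In the control the 956 peaks held from 68 to 2121 counts with a median of 97.5 (14.4 CPM), and in the knockout from 12 to 915 with a median of 37 (5.72 CPM). Their log2 ratios ran from -3.59 to the limit, with a median of -1.23. Of the 956, 181 (18.9%) were at least 3-fold lower and 37 (3.87%) at least 4-fold lower. The intervals given with single ratios are exact 95% intervals for counting error only, and since the rule sets a ratio and a count, an upper bound below 1 follows from it.

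Loss by this rule became rarer as peaks became stronger. Of peaks with 100 to 124 counts in all, 8.25% (382 of 4631) were lost, of those with 200 to 299 counts 2.71% (101 of 3727), and of those with 500 to 999 counts 0.125% (1 of 803). Gained peaks declined less steeply, from 4.92% to 1.62% over the same range. Of 129 peaks with 1000 counts or more, 3 were lost and 4 gained. The peaks nearest the limit on the inside had 126 and 60 counts (2 peaks, log2 ratio -1.001) or 128 and 61 (-1.00002), and peaks just outside were at Dysf (199 and 95, -0.9997) and 2010106C02Rik (82 and 39, -0.9995). At exactly 100 counts 19 peaks were inside, and at 99 counts 9 peaks with such ratios stayed out, the lowest being Adamts7 and an unnamed gene on chromosome 13 (82 and 17 counts each).

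**Figure D1:**
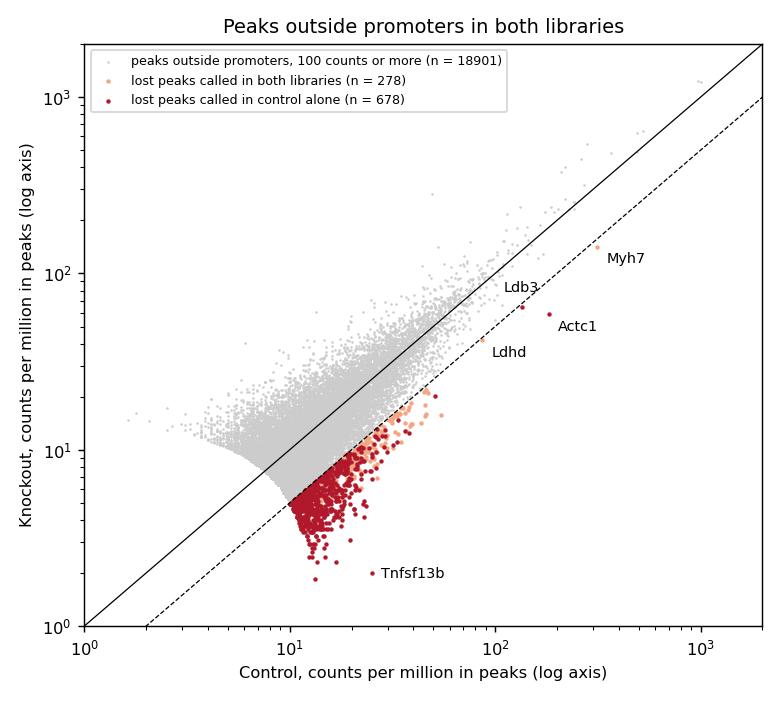
Counts scaled to the library total in peaks (CPM) in the control (x, log axis) and knockout library (y, log axis) for 18901 peaks outside promoters. The solid line marks equal levels and the dashed line a 2-fold lower level; the 956 lost peaks lie under it, 678 of them called in the control alone (dark red) and 278 in both libraries (light red), and most sit at the weak end of the range.

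Which library a peak was called in moved with this choice. Of the lost peaks, 678 (70.9%) were called by the authors in the control alone, 278 (29.1%) in both and 0 in the knockout alone. Among the remaining peaks outside promoters, weighted to the same spread of total counts (peaks of equal signal), 18.1% had a call in the control alone, 69.9% in both and 12.1% in the knockout alone. The call rests on the same reads as the ratio, so the share is no independent measure.

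The strongest lost peaks lay at genes of the contractile apparatus. The peak with the most counts was intergenic, 9.12 kb upstream of Myh7, the slow myosin heavy chain (chromosome 14, 55003748 to 55005134). It held 2121 control counts (314 CPM) and 915 knockout counts (141 CPM), for a ratio of 0.451 (95% interval 0.417 to 0.487). A narrower peak beside it, 8.63 kb upstream of Myh7, held 346 and 130 counts, a ratio of 0.393. Actc1, cardiac alpha-actin, had its lost peak over the 3′ end of the gene (chromosome 2, 114046189 to 114047584), with 1238 and 379 counts and a ratio of 0.320 (0.284 to 0.359). Ldb3, a Z-disc protein, had one over an exon with 908 and 418 counts (0.481, 0.427 to 0.541). The large Myh7 peak was called in both libraries, and the other 3 in the control alone.

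Of the other strong lost peaks, one assigned to Ldhd lay in the span of Znrf1 and held 584 and 270 counts (0.483). An intronic peak of Foxo6, a forkhead transcription factor, held 367 and 102 counts (0.291), the lowest ratio of the 10 strongest. Peaks in introns of Dpf3, a chromatin remodelling subunit of heart and skeletal muscle, (318 and 135 counts) and Gse1 (311 and 142) followed, with a peak over an exon of an unnamed gene near Slc4a1ap (303 and 138) and one in an intron of Itga9, an integrin chain (309 and 116). All of these were called in both libraries.

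The lowest ratios were at weaker peaks. The lowest of all was 9.48 kb from the start of Tnfsf13b, which encodes a B cell survival factor (chromosome 8, 10040798 to 10041416), with 169 and 13 counts and a ratio of 0.0832 (0.0419 to 0.141). The next was intronic in a gene without a symbol match, 19.7 kb from Zdhhc19 (chromosome 16, 32526889 to 32527260), with 114 and 15 counts and a ratio of 0.141. Then came peaks assigned to Gm22215 near Hnrnpll, an RNA-binding splicing regulator (90 and 12 counts, 0.144), Gm11990 (133 and 20, 0.160) and an unnamed gene near Caprin1 (100 and 16, 0.172). An intron of Togaram2 held one with 92 and 15 counts (0.175). The others of the 15 lowest had ratios from 0.185 to 0.212, and lay near Gsc, Synpo2, Ccnj, Trib1, Pramel6, Camk1g, Gm725, Elovl5 and Ppp2r3a. All 15 were called in the control alone, and each kept 12 or more counts in the knockout.

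By annotation the lost peaks were somewhat farther from start sites than peaks of equal signal. Distal intergenic peaks made up 35.5% of them (339), against 31.8% at equal signal and 30.3% of gained peaks. Introns other than the first made up 31.9% (305) against 28.9%, and first introns 12.8% (122) against 16.0%. Promoter flanks, from 1 to 3 kb, made up 13.6% (130) against 15.3%, exons 2.72% against 3.54%, 3′ UTRs 1.88% against 2.36% and downstream regions 1.57% against 2.03%. The median distance to the assigned start site was 12.6 kb in lost peaks, 10.7 kb at equal signal and 10.7 kb in gained peaks. The excess sat in the farthest bands, with 9.83% at 50 to 100 kb against 6.59% at equal signal, and 4.18% at 100 kb or more against 1.96%.

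**Figure D2:**
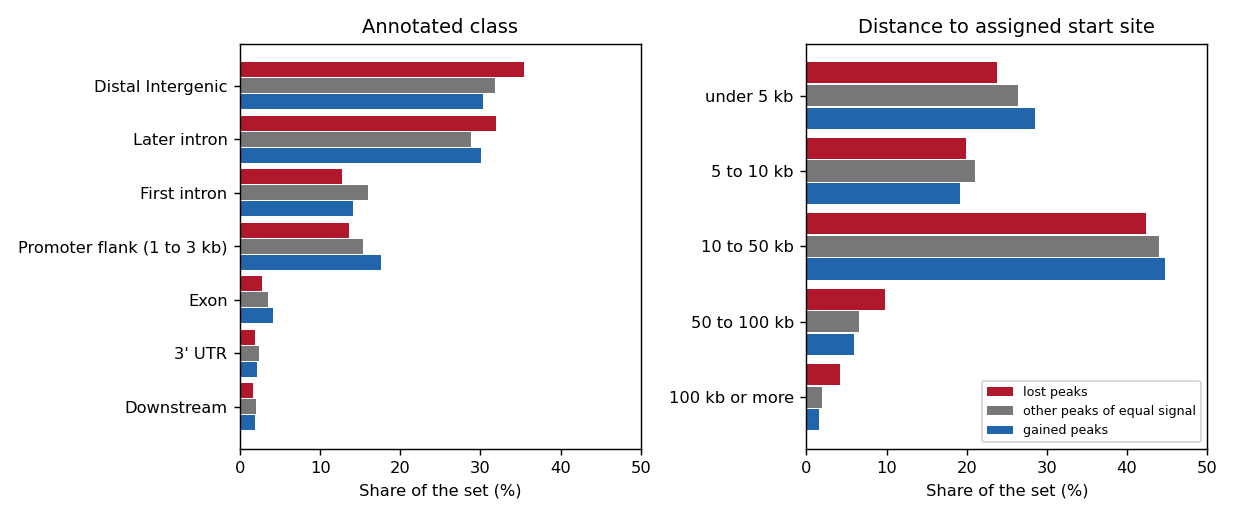
Share (%) of lost peaks (red), other peaks of equal signal (grey) and gained peaks (blue) in each annotated class (left) and band of distance to the assigned start site (right). Lost peaks have the longest bar for distal intergenic regions (35.5%) and in both bands beyond 50 kb.

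Promoter peaks themselves were seldom lost. Of 15996 promoter peaks with at least 100 counts, 151 (0.944%) were at least 2-fold lower. This share was not weighted to equal signal, and outside promoters loss became rarer as peaks became stronger. Lost peaks had a median width of 403 bp, against 380 bp at equal signal and 419 bp in gained peaks. Over the autosomes the share lost ran from 3.06% on chromosome 19 (19 of 620) and 3.20% on chromosome 11 (44 of 1374) to 7.31% on chromosome 3 (65 of 889) and 7.37% on chromosome 16 (48 of 651). Chromosome X had 8 of 146 lost and Y 0 of 18. At equal signal 29.7 would have fallen on chromosome 19, 68.9 on chromosome 11, 47.2 on chromosome 3 and 33.1 on chromosome 16.

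The lost peaks were assigned to 889 gene identifiers, of which 831 had 1 lost peak, 50 had 2 and 8 had 3 or more. No GO (gene ontology) term was attached to the assigned gene of 466 of them (48.7%), against 41.9% at equal signal and 40.0% of gained peaks. Of lost peaks placed in an exon or an intron, 42.6% (193 of 453) were assigned to another gene than the one they lie in.

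Among the 490 lost peaks with GO terms, genes of potassium currents stood first. Potassium channels carry the outward current that ends the cardiac action potential. Of 170 terms with at least 10 lost peaks, or 10 expected at equal signal, "voltage-gated potassium channel activity" had the highest ratio to equal signal, 6.98. Of 35 peaks outside promoters assigned to it, 10 (28.6%) were lost and 0 gained, against 5.06% lost over all such peaks, and 1.43 peaks would have been lost at equal signal. The 10 peaks belong to 10 of 21 genes with a peak in reach. The related terms "potassium channel activity" (10 of 59) and "potassium ion transport" (14 of 113) hold most of the same genes. The term was read off a ranking of these same data, and the peaks named from it and from the terms below were chosen after their values were seen.

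The channel subunits in this group covered several currents. Kcnab2, an auxiliary beta subunit, had the lowest ratio, at a peak in its first intron with 114 and 33 counts (0.306, 0.199 to 0.449). Kcnd3, a pore subunit of the transient outward current, had an intronic peak with 93 and 43 counts (0.486, 0.328 to 0.701). Kcne1, the partner of Kcnq1 in the slow delayed rectifier, had one 1499 bp from its start with 88 and 39 counts (0.466), and Hcn4, the main pacemaker channel, an intronic one with 109 and 51 counts (0.491). The peak of Kcnma1, a calcium-activated channel, held 74 and 28 counts (0.400), while its promoter peak was higher in the knockout (31 and 62 counts).

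Those at Kcna10 (79 and 26 counts) and Kcna2 (94 and 44) lie in 1 cluster on chromosome 3 and are not independent. The peak assigned to Kcnh1 (85 and 30) lies in the span of Hhat. The group was thus made of weak peaks, each under 120 counts in the control, and 9 of the 10 were called in the control alone. Of the 25 other peaks of the term, 18 were also below 0 on the log2 scale, and the median of those not lost was -0.27. Of its 38 promoter peaks with at least 100 counts, 24 lay below 0, with a median of -0.15.

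The potassium result depended on the limits chosen. None of 7 peaks of the term with 200 or more counts was lost, 1 of 23 among peaks called in both libraries, and 1 of 35 at the 3-fold limit. With the term taken from the nearest RefSeq protein-coding gene in place of the authors' assignment, 11 of 75 peaks (14.7%) were lost.

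**Figure D3:**
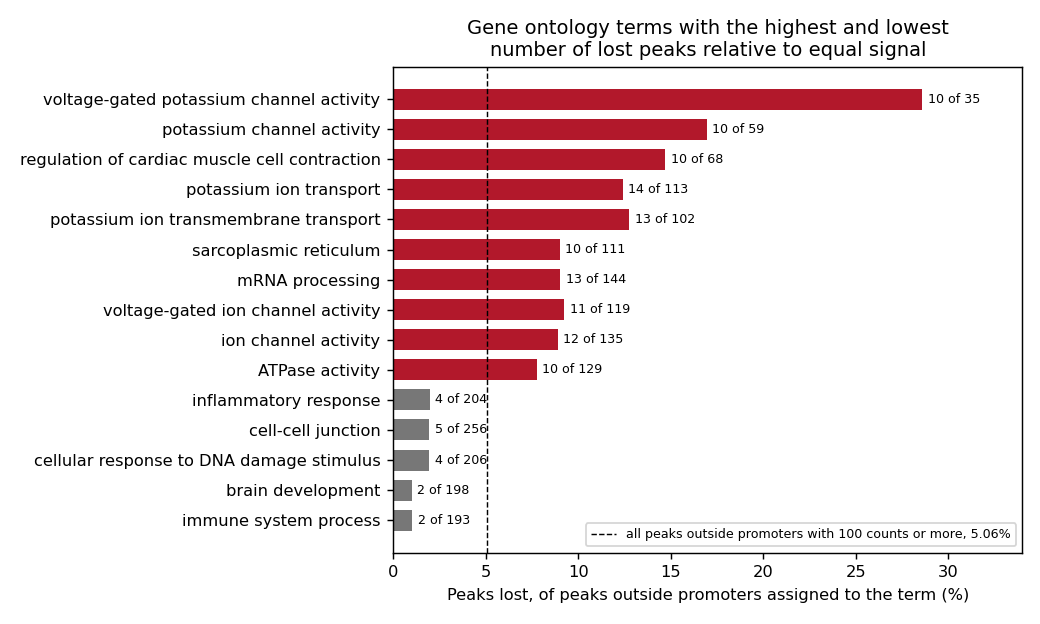
Share (%) of peaks outside promoters that were lost, for the 10 gene ontology terms highest and the 5 lowest (grey) relative to equal signal, with lost and total peaks beside each bar. The dashed line marks the 5.06% lost over all peaks of this kind; voltage-gated potassium channels stand at 28.6%.

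Genes that set the force and rate of the heartbeat came next. The term "regulation of cardiac muscle cell contraction" had 10 of 68 peaks lost (14.7%) and 2 gained, with 3.02 lost at equal signal. Adrb1, the beta-1 adrenergic receptor through which noradrenaline speeds and strengthens the beat, had 2 lost peaks upstream. The one 53.0 kb away, whose bases are shown above in part, held 20.6 control and 4.64 knockout CPM, for a ratio of 0.228 (0.147 to 0.336). The one 45.5 kb away (chromosome 19, 56676401 to 56676880) held 122 and 38 counts, a ratio of 0.328 (0.220 to 0.472). Adrb1 peaks of at least 100 counts outside promoters that were not lost had ratios from 0.702 (0.503 to 0.968) to 0.929 (0.653 to 1.32). The strongest promoter peak of Adrb1, the kind given below for other genes too, held 181 and 93 counts (0.538, 0.413 to 0.693), lower but inside the 2-fold limit.

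Akap6, an anchor of protein kinase A at the nuclear envelope and sarcoplasmic reticulum, had 2 lost peaks in its introns, with 106 and 43 counts and with 79 and 33. Other intronic peaks of Akap6 were higher in the knockout, with 40 and 72 counts (1.87) and with 50 and 94 (1.95), both called there alone. Phosphodiesterases break down cyclic AMP. Pde4b had a lost peak 1.16 kb upstream of its start (107 and 39 counts, 0.384), and Pde4d one 50.5 kb from its assigned start (84 and 35, 0.439). Adora1, an adenosine receptor, had one near its start (87 and 30, 0.364). Both genes have several promoter peaks, which differed among themselves. At Pde4b the strongest held 322 and 313 counts (1.02, 0.866 to 1.19), and others had ratios of 0.403 (102 and 39 counts, 0.269 to 0.583) and 0.658 (0.504 to 0.850). At Pde4d the strongest had a ratio of 0.950 (0.804 to 1.12), and others ran from 0.720 (0.517 to 0.993) to 1.81 (1.29 to 2.59).

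For the 15 genes listed for adrenergic and cyclic AMP signalling, 7 of 56 peaks (12.5%) were lost and 0 gained, with 2.51 lost at equal signal. Those of Adrb1, Akap6, Pde4b and Pde4d are described above. Counted by position inside the gene bodies instead, 4 of 58 (6.90%) were lost, with 2.76 at equal signal, since those of Adrb1 and Pde4d, among others, lie outside and one in Grk5 comes in.

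Calcium cycling genes had lost peaks at the store and at the surface. The term "sarcoplasmic reticulum" had 10 of 111 peaks lost (9.01%) and 3 gained, with 5.24 lost at equal signal. Pln, the inhibitor of the calcium pump, had one 4.60 kb upstream, in an intron of Cep85l, with 105 and 46 counts (0.460), and its promoter peak held 105 and 69 (0.688, 0.499 to 0.939). Jph2, which ties the surface membrane to the store, had an intronic peak with 227 and 96 counts (0.443, 0.344 to 0.563). Itpr1, an inositol trisphosphate receptor, had one with 87 and 28 counts (0.340), Stim1, a sensor of store calcium, one with 105 and 37 (0.371), and Mrln, a micropeptide inhibitor of the pump, an intergenic one with 92 and 28 (0.322). Cacna1c, the pore subunit of the L-type calcium channel, had a lost peak in intron 29 with 85 and 24 counts (0.299). Its promoter peak held 244 and 143 (0.613, 0.495 to 0.756). The strongest promoter peak of Itpr1 was lower too, with 499 and 361 counts (0.756). Those of Jph2 (414 and 378 counts, 0.954) and Stim1 (341 and 335, 1.03) did not follow the lost peaks. Another Mrln peak outside promoters held 67 and 71 counts (1.11).

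Of the 26 genes listed for calcium handling and ion channels, 5 of 80 assigned peaks (6.25%) were lost, with 3.76 at equal signal, beside 5.06% over all peaks of this kind. The sarcomere and Z-disc list of 26 genes had 5 of 86 lost (5.81%) and 3 gained, with 2.72 lost at equal signal. Among the lost were the 3 lost peaks of 1000 counts or more, at Myh7, Actc1 and Ldb3. The fifth, of the muscle LIM protein gene Csrp3, held 122 and 54 counts (0.465). Counted inside the gene bodies of this list, 3 of 71 peaks (4.23%) were lost and 5 gained, with 2.10 lost at equal signal. Of 24 cardiac transcription factor genes, only Esrrb, an orphan nuclear receptor, had a lost peak by assignment (136 and 58 counts, 0.448), in 64 peaks. Vldlr, a lipoprotein receptor, had 2 lost peaks upstream (81 and 33 counts, 224 and 100), the only ones among 37 peaks of fatty acid and mitochondrial genes.

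**Figure D4:**
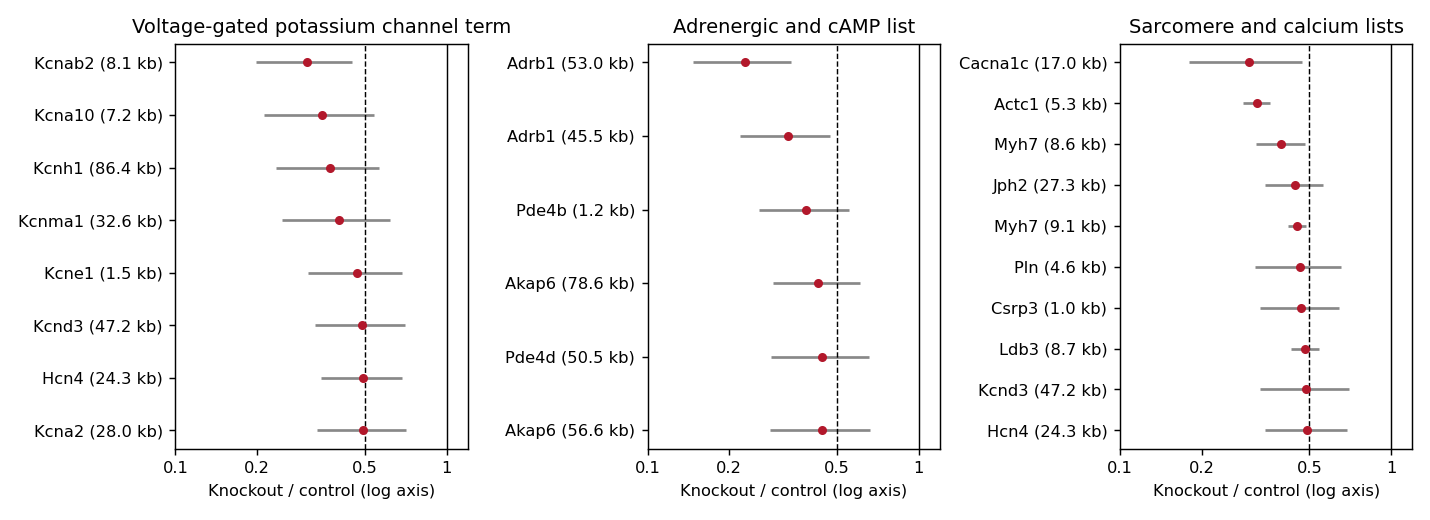
Ratio of knockout to control (log axis) of the lost peaks reported by name, with exact 95% intervals for counting error, for the potassium channel term and for the lists of adrenergic signalling, sarcomere and calcium genes, with the distance to the assigned start in brackets. The solid line marks equal levels and the dashed line the 2-fold limit; the lowest named peak is that 53.0 kb from Adrb1, at 0.228.

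Among markers of other cell types there were 0 lost of 24 peaks of extracellular matrix genes, 0 of 15 of fibroblast, 0 of 51 of endothelial and 0 of 3 of myeloid markers, against 1.30, 0.854, 2.29 and 0.216 at equal signal, which are themselves near 0. Of the same peaks 5, 1, 4 and 0 were gained. Mural markers had 1 of 16, in an intron of Abcc9, a subunit of ATP-sensitive potassium channels that heart muscle also uses (74 and 31 counts). Summed over all peaks of each list, the ratio of knockout to control was 1.15 for 15 endothelial, 1.16 for 10 fibroblast and 1.02 for 11 mural markers with peaks, and 0.846 for 25 sarcomere genes and 0.843 for 26 calcium genes. Other lists of heart genes were not as low. Adrenergic signalling had 0.927, cardiac transcription factors 0.969, fatty acid and mitochondrial genes 1.002, and fetal and stress genes 1.14. A list of 15 cell cycle genes, not particular to heart muscle, had 0.891. Over promoter peaks alone the ratio was 0.923 for sarcomere and 0.860 for calcium genes, and lower still, 0.828, for cell cycle genes. It was 1.11 there for endothelial, 1.18 for fibroblast and 1.18 for mural markers. Of 10 myeloid markers, 7 had any peak, with 386 and 472 counts in all. The part of such differences in the loss of single peaks was not tested.

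At the low end of the ranking were terms with few lost peaks for their signal. "Immune system process" had 2 of 193 (1.04%) lost where 10.5 would be at equal signal, "brain development" 2 of 198, "cellular response to DNA damage stimulus" 4 of 206, "cell-cell junction" 5 of 256 and "inflammatory response" 4 of 204. The median ratio to equal signal over the 170 terms was 0.882.

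Lost peaks were mostly scattered singly. Within 50 kb of another lost peak lay 129 of them (13.5%), against 8.95% of peaks of equal signal that had a lost peak so near. Of gained peaks 27.0% (195 of 723) lay within 50 kb of another gained peak. Joined over gaps of up to 50 kb, lost peaks formed 827 single peaks, 55 pairs, 5 clusters of 3 and 1 of 4. Gained peaks reached clusters of 7. A gained peak lay within 10 kb of 5 lost peaks (0.523%), and of 515 peaks neither lost nor gained (2.99%, unweighted). Both kinds of peak fell on 27 identifiers, 3.04% of those with lost and 4.31% of those with gained peaks. Of all 9794 identifiers with a peak outside promoters of at least 100 counts, 889 (9.08%) had a lost peak and 626 a gained peak.

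The cluster of 4 was at Plekhm2, which encodes a regulator of lysosome transport and is a cardiomyopathy gene in humans. Its peaks held 107 and 29 counts (0.287), 82 and 36 (0.462), 90 and 34 (0.398) and 97 and 45 (0.488), all called in the control alone. Of 5 peaks of Plekhm2 outside promoters with at least 100 counts, 4 were lost and the fifth had a log2 ratio of -0.82, and the promoter peak held 340 and 220 counts (0.677, 0.568 to 0.803).

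Lpin1, a phosphatidate phosphatase and nuclear coregulator of fat oxidation, had 3 lost peaks (146 and 56 counts, 115 and 54, 180 and 63), and all 7 of its peaks outside promoters with at least 100 counts lay below 0. Itga9 had 3 of 10 lost (218 and 102, 85 and 30, 309 and 116) with others as high as 1.12 on the log2 scale. The 3 lost peaks assigned to Nsmce4a all lie in introns of Tacc2 (158 and 73 counts, 128 and 49, 189 and 89). Tns3, a focal adhesion protein, had 3 of 8 lost, with 117 and 49, 83 and 26, and 100 and 41 counts. Ptprm had 3 of 12, with 92 and 43, 141 and 57, and 116 and 38, and Arhgap26 3 of 28. All 3 loci also held peaks that were higher in the knockout, up to 0.77 at Tns3, 0.84 at Ptprm and 1.99 at Arhgap26 on the log2 scale.

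An unnamed gene between Aplnr, the apelin receptor gene of vessel and heart, and Lrrc55 had 4 peaks, and all 3 that lay outside promoters with at least 100 counts were lost (75 and 31 counts, 127 and 55, 150 and 47). Other clusters of 3 lay across Ddx20 and Inka2 (312 and 103 counts, 222 and 105, 124 and 33) and in Clasp1 (79 and 30, 87 and 40, 213 and 92).

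Around lost peaks the other peaks leaned the same way. Neighbours of at least 100 counts that were neither lost nor gained, promoter peaks included, were averaged around each peak. Within 5 kb, 209 lost peaks had such neighbours, with a median of these mean log2 ratios of -0.17 and 64.6% below 0, against 0.03 and 47.0% around peaks of equal signal. The median was -0.12 at 5 to 20 kb, -0.07 at 20 to 50 kb and -0.04 at 50 to 200 kb, against 0.02, 0.0011 and -0.0047. Around gained peaks the medians ran from 0.35 within 5 kb to 0.06 at 50 to 200 kb. These neighbours come from the same 2 libraries that chose the lost peaks.

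**Figure D5:**
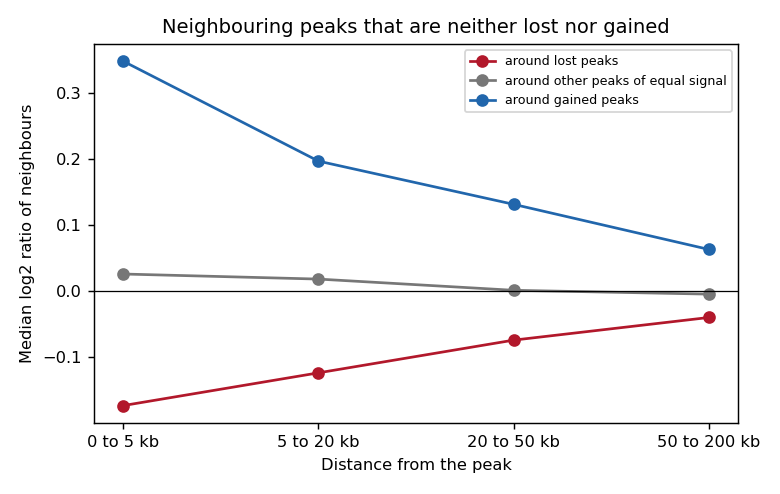
Median over peaks of the mean log2 ratio (y) of their neighbours that are neither lost nor gained, by distance (x), around lost peaks (red), other peaks of equal signal (grey) and gained peaks (blue). Neighbours within 5 kb of lost peaks have a median of -0.17 and the value nears 0 with distance.

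The promoters of the assigned genes were lower only slightly. Of 862 identifiers with lost but no gained peaks, 377 had a promoter peak of at least 100 counts, with a median log2 ratio of -0.09, 251 of them (66.6%) below 0, 7 at least 2-fold lower and 0 at least 2-fold higher. For identifiers with neither kind the median over 3714 promoters was 0.0028, with 49.5% below 0, and for those with gained peaks alone 0.10 over 317, with 35.6% below 0. Among the 37 with 2 or more lost peaks the median was -0.18. At Myh7 (281 and 134 counts, 0.499) the promoter itself passed the 2-fold limit, whereas at Itga9 (145 and 133, 0.959), Ptprm (654 and 703, 1.12) and Arhgap26 (569 and 616, 1.13) it did not follow the lost peaks.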

How the data were processed

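The deposited table lists merged peaks and marks which library each was called in, per the file headers. BWA, MACS2 and GRCm38.p6 are named in the submitters' processing notes, with no versions. Whether reads were filtered, deduplicated or shifted for Tn5 was not given in the sources used. The deposited counts are whole numbers per peak (6755590 in the control, 6466537 in the knockout), and intervals from them cover counting error only. The authors' RPM values and log2 fold change served as an alternative scale, and their fold enrichment, a ratio, was not used.

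Members, lists and comparisons were chosen with earlier results of these data known. Exact (Clopper-Pearson) 95% intervals of each ratio came from scipy 1.17.1. Peaks of equal signal are all other peaks outside promoters with at least 100 counts, weighted over 7 bins of total count, with no random draws. Of 24480 identifiers, 77.2% took a RefSeq symbol by position (span overlap of at least 0.5, both ends within 1 kb, or a start within 100 bp on the same strand), as did 72.5% of lost peaks. Identifiers with GO terms that met none of these could take the symbol of the only protein-coding gene that nearly enclosed them. Named peaks are the 15 lowest, the 10 strongest, clusters of 4, genes with 3 or more, members of the lists, and those at the limits, and GO terms are the 10 highest and 5 lowest. Clusters of 3, peaks of the GO terms described, related terms and the peaks under other observations were named beyond this rule. Some peaks under this rule are counted but not reported here by name. Motifs and GC content were not compared over peaks, since no genome was used. The rule for lost peaks was also run on counts simulated by binomial draws at the observed totals. These draws hold no variation between animals or libraries, so they cannot measure its effect on the rule.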

Additional observations from a re-analysis of the deposited data

How the results depend on the processing

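No paired analysis was possible because there is 1 library per genotype. The number of lost peaks stayed within 1.5 times of 956 with median centring, a pseudocount of 5 and promoters within 3 kb, and was 1491 on the authors' RPM scale, 181 at 3-fold, 2943 at 1.5-fold, 141 with 200 counts, 3139 with 50 counts and 278 among peaks called in both libraries. RPM moved the median log2 ratio by -0.17. The share of distal intergenic peaks, 35.5%, was 43.1% at 3-fold, 41.0% with promoters within 3 kb (fewer classes remain) and 42.4% for peaks called in both. It was above that of peaks of equal signal in 9 of 10 settings, and with 50 counts the excess was gone (35.6% against 35.8%). The share of potassium channel peaks lost, 28.6%, was 2.86% at 3-fold, 0% of 7 peaks with 200 counts and 4.35% for peaks called in both, and 20% (7 of 35) with median centring and with a pseudocount of 5. The share with another lost peak near, 13.5%, was 19.8% on the RPM scale, 3.31% at 3-fold, 34.1% at 1.5-fold, 7.09% with 200 counts, 29.9% with 50 counts, 10.5% with promoters within 3 kb, 5.04% for peaks called in both, 5.13% within 10 kb and 34.4% within 200 kb. It was above that of peaks of equal signal in all 12 settings run. The share called in the control alone, 70.9%, was 63.0% on the RPM scale, 91.7% at 3-fold, 51.3% at 1.5-fold, 28.4% with 200 counts, 90.9% with 50 counts and 0% by construction for peaks called in both. Except where construction is named, the cause was not tested. The settings that take the nearest RefSeq gene and that define equal signal by control counts were added after seeing the data. The alternatives on sequence features were not run, since no genome was used.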

Other observations

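Genes of RNA processing also held lost peaks. The GO term "mRNA processing" had 13 of 144 peaks lost (9.03%) and 2 gained, with 7.05 lost at equal signal, in 12 of its 69 genes with a peak. Over all peaks outside promoters with at least 100 counts, 5.06% were lost. Rbfox1, a splicing regulator of muscle and neurons, had the lowest ratio, at a peak in intron 4 with 98 and 21 counts (0.228, 0.133 to 0.361). Rbm20, which controls the splicing of titin, had one 14.7 kb from its assigned start with 147 and 66 counts (0.471, 0.345 to 0.631). Adarb1, an RNA editing enzyme, had 2, with 73 and 27 counts and with 84 and 39. Among peaks of the term that were not lost the median log2 ratio was -0.03, and over its 307 promoter peaks -0.02. Related terms differed. "Nuclear body" had 13 of 192 lost with 8.41 at equal signal, and "RNA binding" 21 of 386 with 19.0. "Nuclear speck" had 9 of 231 with 11.7, and "nucleic acid binding" 18 of 584 with 28.8.

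Some lost peaks lie in or near cardiac channel and pump genes although the table assigns them to other identifiers. They were picked with their values in view. They lay in Cacnb2 (120 and 38 counts, 111 and 52), Camk2d (142 and 59), Atp2a2, the calcium pump itself (146 and 65), and Cacna1c (210 and 95), and 9.17 kb from Gja5, an atrial connexin (117 and 29), and 6.21 kb from Kcnq1 (131 and 45). Counted inside the gene bodies of the calcium and channel list, 9 of 136 peaks (6.62%) were lost and 8 gained, with 6.15 lost at equal signal. Over all peaks outside promoters with at least 100 counts, 5.06% were lost and 3.83% gained. An intron of Erg, an endothelial transcription factor, held a lost peak of 95 and 25 counts, the only one inside the bodies of endothelial markers.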
